A study of Mus musculus with 8 samples.

Results

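The Nanog gene cluster was taken as 4 neighbouring genes on mouse chromosome 6, Gdf3, Dppa3, Nanog and Slc2a3, out of 21938 protein-coding genes. The rule takes the members by name and position and uses no accessibility value, although they were chosen with earlier results of these data known. Peaks of open chromatin were collected over each gene body and the 50 kb to each side. Adjoining windows overlapped, and together they formed a single stretch of 296 kb, chr6:122555403-122851640 (mm10). Peaks of all lists within 400 bp of each other were merged into sites, and of 101701 sites in the genome 34 lay in this stretch. Of these 34, 14 fell in the window of 1 member and 20 in the windows of 2 members, so that counts of different members are not independent.

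Nanog encodes a homeodomain transcription factor that holds embryonic stem cells in the pluripotent state, and its activation is a late event when somatic cells are reprogrammed. Dppa3, also known as Stella or PGC7, encodes a maternal factor that guards DNA methylation in the early embryo and is expressed in germ cells and pluripotent cells. Gdf3 encodes a ligand of the TGF-beta family made by pluripotent cells, and Slc2a3 encodes GLUT3, a high-affinity glucose transporter that is also used outside the pluripotent state. A peak of transposase accessibility marks DNA that is free of tightly packed nucleosomes, as at active promoters and enhancers.

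ATAC-seq, in which a transposase cuts open DNA and adds sequencing adapters, had been run on 8 libraries in 4 groups of 2. The groups were untreated mouse embryonic fibroblasts (MEFs) from mid-gestation embryos, cells 5 and 10 days into OSKM reprogramming, begun in MEFs with pMXs retroviruses for Pou5f1, Sox2, Klf4 and Myc, and embryonic stem cells (ESCs). Cells at both days also carried a FLAG control vector and grew in ESC medium with vitamin C, and all groups were wild type at the knockout label. The labels give MEFs, both OSKM days and ESC replicate 2 as C57BL/6J-OG2, a line with a GFP reporter driven by Oct4 sequence, and ESC replicate 1 as C57Bl6J. They place ESCs on feeder MEFs, whereas the methods describe OG2 ESCs on gelatin in 2i/L medium. Cells of the OSKM days were unsorted as far as the sources state, so that a site accessible in few cells cannot be told apart from an inaccessible site. A site is called open in a group when the list of that group has a peak in it, and a site with no listed peak may still be accessible below the threshold of the list.

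Each group had 1 deposited peak list, by its name an intersection of both replicates, so that the values below have no replicate error and were not tested. A peak carries a score, 10 times the −log10 of its q-value. Scores are printed for each list, but they order peaks only within a list, so that raw scores of different lists do not compare groups. List lengths were 56514 peaks for MEFs, 36219 for day 5, 35226 for day 10 and 48486 for ESCs. The depth of the libraries is unknown. Cell type markers followed the labels of MEFs and ESCs in number, though not for every gene. All 10 fibroblast markers had a peak over a start site in MEFs and 5 had one in ESCs, whereas 3 of 8 ESC markers had one in MEFs and 6 in ESCs. Nanog itself is 1 of these 8 and 1 of the 6, so that the ESC check is not fully independent of the cluster. Among the ESC markers, Tdgf1 had a start peak in MEFs and none in ESCs. Dppa5a had none in any list, and Tfcp2l1 had one in every list. Of all protein-coding genes, 60.0% had a start peak in MEFs and 55.8% in ESCs.

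The sequences that frame the results are shown on the + strand of mm10, with matches to short motifs in capitals. The motifs were searched on both strands. They were ATGCAAAT for the octamer of OCT4, the composite element at which OCT4 and SOX2 bind side by side, CCATTGT or CCTTTGT for SOX factors, CCACACCC, CCACGCCC, CCCCACCC or CCCCGCCC for KLF factors, TCAAGGTCA for ESRRB, TTCCNGGAA for STAT factors, TGACTCA or TGAGTCA for AP-1, and the CTCF core. None of the stretches touches an annotated exon. The first is the 250 bp before the outermost Nanog start, all within the only listed peak over a Nanog start, found in ESCs. The second is the middle of the bases shared by all 4 lists at −4.67 kb, the nearer of the sites upstream of Nanog that were open in all groups. The third, upstream of Dppa3, was open in ESCs only. The fourth is the middle of a high-scoring MEF peak upstream of Nanog, and the last pair lies in Slc2a3 introns.
Nanog start, chr6:122707239-122707488: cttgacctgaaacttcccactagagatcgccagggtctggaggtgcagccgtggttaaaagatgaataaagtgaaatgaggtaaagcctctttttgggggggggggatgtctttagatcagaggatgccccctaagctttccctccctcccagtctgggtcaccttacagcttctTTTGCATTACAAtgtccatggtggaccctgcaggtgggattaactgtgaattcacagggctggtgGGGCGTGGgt
Nanog upstream, all groups, chr6:122702683-122702982: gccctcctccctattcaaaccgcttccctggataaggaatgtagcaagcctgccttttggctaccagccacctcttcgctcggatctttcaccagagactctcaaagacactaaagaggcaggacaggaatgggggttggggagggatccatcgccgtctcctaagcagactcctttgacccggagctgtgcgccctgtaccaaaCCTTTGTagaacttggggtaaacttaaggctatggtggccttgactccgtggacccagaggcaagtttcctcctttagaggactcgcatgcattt
Dppa3 upstream, ESCs only, chr6:122624570-122624869: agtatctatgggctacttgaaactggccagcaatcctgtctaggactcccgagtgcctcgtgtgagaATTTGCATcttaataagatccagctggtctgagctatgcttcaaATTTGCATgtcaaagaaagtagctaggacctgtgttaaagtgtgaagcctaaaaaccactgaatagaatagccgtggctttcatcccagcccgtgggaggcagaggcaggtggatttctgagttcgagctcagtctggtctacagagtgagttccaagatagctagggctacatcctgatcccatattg
Nanog upstream, MEF peak, chr6:122689623-122689922: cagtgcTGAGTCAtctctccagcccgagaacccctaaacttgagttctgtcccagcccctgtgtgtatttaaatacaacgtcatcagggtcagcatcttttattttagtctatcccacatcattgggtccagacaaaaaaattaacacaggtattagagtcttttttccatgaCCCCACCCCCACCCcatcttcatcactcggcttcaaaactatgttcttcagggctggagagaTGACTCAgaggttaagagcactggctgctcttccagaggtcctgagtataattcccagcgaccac
Slc2a3 intron, day 10 and ESCs, chr6:122740024-122740323: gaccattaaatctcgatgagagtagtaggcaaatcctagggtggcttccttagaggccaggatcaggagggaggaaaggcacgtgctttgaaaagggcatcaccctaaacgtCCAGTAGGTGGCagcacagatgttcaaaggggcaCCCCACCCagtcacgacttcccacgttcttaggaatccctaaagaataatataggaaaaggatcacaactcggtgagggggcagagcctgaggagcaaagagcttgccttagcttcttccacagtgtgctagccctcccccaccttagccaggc
Slc2a3 intron, ESCs only, chr6:122770480-122770779: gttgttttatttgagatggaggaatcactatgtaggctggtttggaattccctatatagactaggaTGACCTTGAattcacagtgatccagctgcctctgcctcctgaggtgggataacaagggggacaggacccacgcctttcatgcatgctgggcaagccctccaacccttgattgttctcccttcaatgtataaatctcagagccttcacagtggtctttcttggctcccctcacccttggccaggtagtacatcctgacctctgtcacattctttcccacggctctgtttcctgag

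The cluster held more listed peaks in ESCs than in MEFs, and the raw numbers of the OSKM days stayed near that of MEFs. There were 16 peaks in MEFs, 13 on day 5, 15 on day 10 and 27 in ESCs. Per 100 kb these were 5.40, 4.39, 5.06 and 9.11 peaks, against 2.07, 1.33, 1.29 and 1.78 over the genome. Gene windows of the same kind are a closer match than the whole genome, and their medians over all protein-coding genes were 3.46, 2.10, 2.34 and 3.12 peaks per 100 kb. The cluster lay above both in every list. Peaks covered 4.35% of the cluster in MEFs, 3.97% on day 5, 4.54% on day 10 and 6.88% in ESCs. The ESC surplus over MEFs rested largely on low-scoring peaks. When each list was cut to its 35226 peaks of highest score, the cluster held 13 peaks in MEFs, 13 on day 5, 15 on day 10 and 17 in ESCs.

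All 4 members had more peaks in ESCs than in MEFs, as had 35.6% of all protein-coding genes. In the Gdf3 window the numbers were 6 in MEFs, 3 on day 5, 3 on day 10 and 7 in ESCs, so that Gdf3 had the smallest surplus. In the Dppa3 window they were 3, 4, 4 and 8. In the Nanog window they were 6, 6, 7 and 10. The Slc2a3 window, the longest because the gene spans 73832 bp, held 9, 8, 10 and 18. Medians over all protein-coding genes were 5 in MEFs, 3 on day 5, 3 on day 10 and 4 in ESCs. Dppa3 was the member that lay below the median in MEFs, with 3 peaks, and above it in ESCs, with 8. In ESCs, 99.5% of genes had fewer peaks than Slc2a3, 93.3% fewer than Nanog, 82.6% fewer than Dppa3 and 74.3% fewer than Gdf3.

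**Figure D1:**
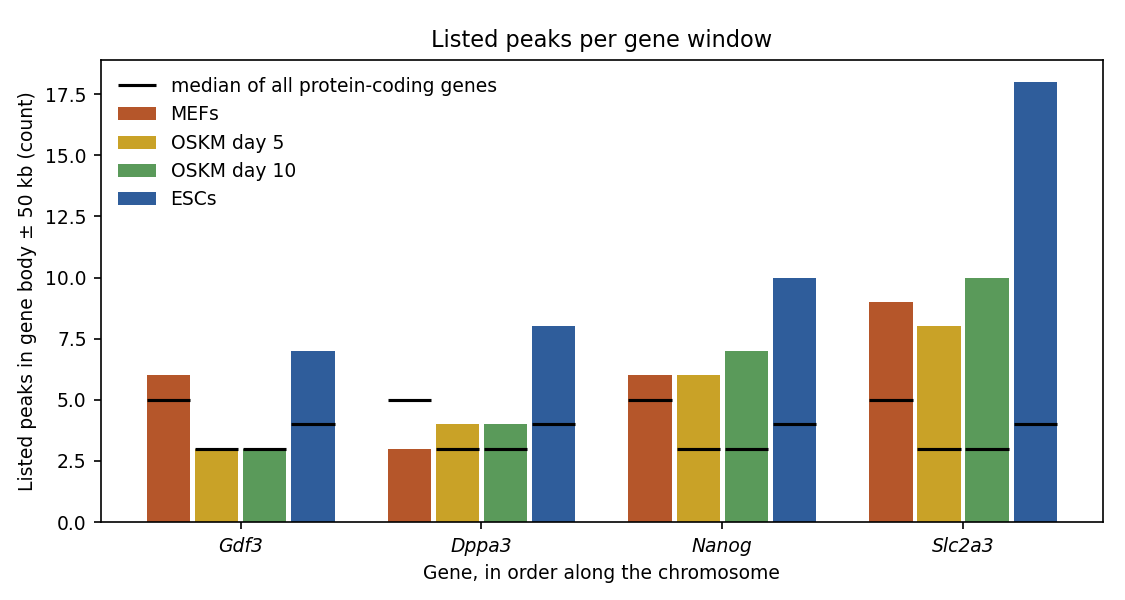
Number of listed peaks in each gene body and the 50 kb to each side (y axis, count), for the 4 genes in chromosome order (x axis), with 1 bar per peak list and a black line at the median of all protein-coding genes in that list. The ESC bar is the highest for every gene, from 7 in Gdf3 to 18 in Slc2a3.

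Start sites separated the members. In ESCs, 3 members had a peak over an annotated start, as had 55.8% of all genes. In MEFs, on day 5 and on day 10 only Slc2a3 had one, against 60.0%, 52.1% and 56.0% of all genes. A start peak in ESCs and not in MEFs, as found for Nanog and Gdf3, was present in 3.54% of genes, and a start peak in ESCs and in no other list in 2.60%. The Gdf3 call rests on its inner start. When only the most upstream start of each gene was used, 2 members had a start peak in ESCs, Nanog and Slc2a3. Dppa3 had no start peak in any list, which held for 35.4% of genes.

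The Nanog gene (ENSMUSG00000012396.12, chr6:122707489-122714633, + strand) has 3 annotated starts within 0.079 kb. Only the ESC list had a peak there, at chr6:122707158-122707529. It was 372 bp wide, scored 66, and 24.2% of ESC peaks scored as high or higher. The peak lay over the outermost start and ended before the inner starts at 122707565 and 122707568. It shared 28 bp with Nanog exons and 13 bp with an intron, and otherwise lay upstream. Neither OSKM day had a listed peak at the Nanog start. A replicate 1 peak whose number was missing from the day 5 list lay between −4.29 kb and +34.6 kb of the Nanog start. It can therefore not be said whether replicate 1 had a peak at the start on day 5, whereas on day 10 no number was missing in that stretch.

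The promoter sequence held 1 match to the OCT4-SOX2 composite, TTTGCATTACAA on the + strand at chr6:122707414-122707425, centred −69.5 bp from the start. A match to the composite was found in 0.119% of all sites when the middle 300 bp were searched, and in 0.0365% of 32851 RefSeq promoter windows (GRCm38). A KLF match, GGGCGTGG, was centred −6.5 bp from the start. KLF letters were common, in 15.8% of all sites and in 29.7% of promoter windows. These matches are a description of the sequence and say nothing of binding.

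**Figure D2:**
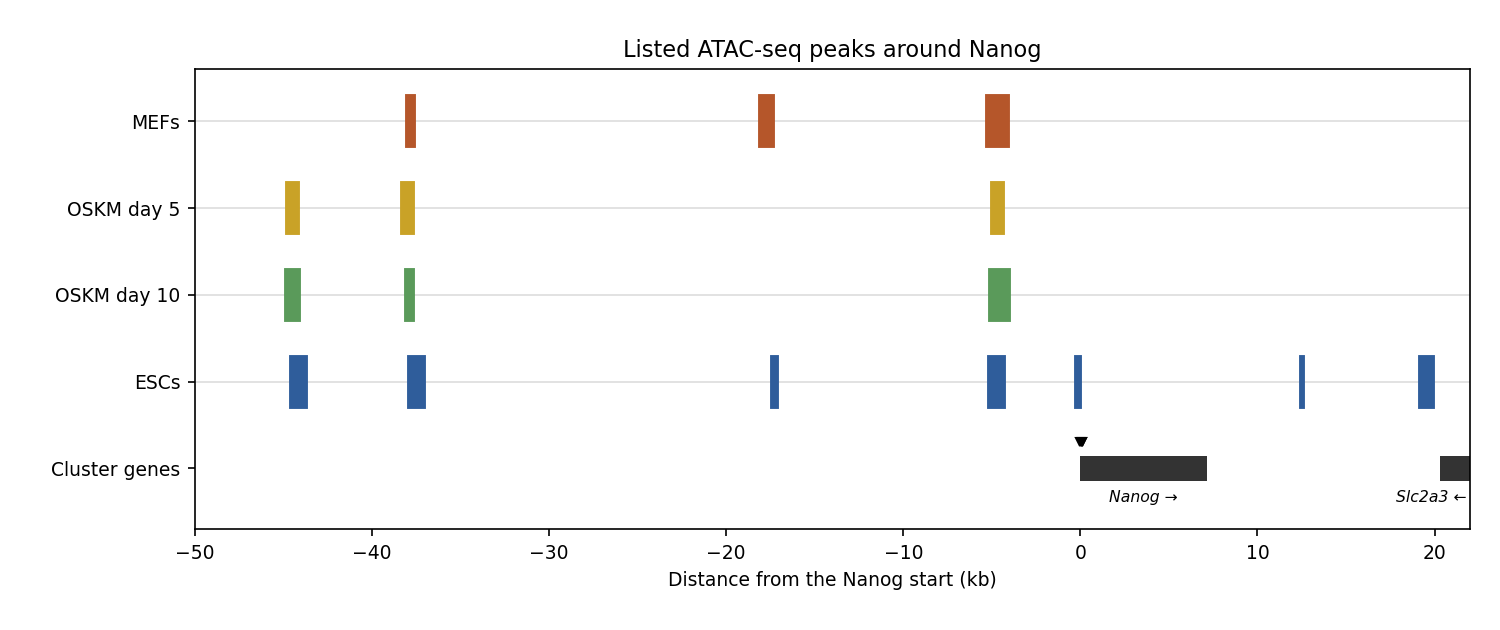
Listed peaks around the Nanog start (x axis, distance in kb), with 1 row per peak list, the gene bodies in black and annotated starts as triangles (narrow peaks are drawn at a minimum line width). The site at −4.67 kb is filled in all 4 rows, and only the ESC row is filled at the start.

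Upstream of Nanog, 4 sites lay between Dppa3 and Nanog that were each in more than 1 list. The nearest, centred at −4.67 kb and intergenic, was open in all 4 groups. It scored 147 in MEFs, 176 on day 5, 145 on day 10 and 145 in ESCs. Of the peaks of the same list, 10.1%, 1.79%, 5.45% and 3.59% scored as high or higher, so that it stood high in every list and relatively highest on day 5. Its 738 bp shared by all lists held the printed SOX match CCTTTGT, a motif present in 14.4% of all sites.

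At −17.6 kb the lists differed in another way. MEFs had a peak of 875 bp with a score of 249, which 1.75% of MEF peaks reached. ESCs had a peak of 391 bp with a score of 25, in the lower part of the list, since 75.8% of ESC peaks scored as high or higher. The 2 peaks shared 179 bp, and neither OSKM day had a listed peak there. The middle of the MEF peak held 2 AP-1 matches, TGAGTCA and TGACTCA, and 2 overlapping KLF matches. Of its bases, 48% are marked as repeats in the genome sequence. AP-1 letters were found in 15.7% of all sites, in 31.2% of sites open in MEFs and not in ESCs and in 6.04% of sites open in both. In the cluster, 3 of 34 sites (8.82%) had an AP-1 match in their middle 300 bp.

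The site at −37.7 kb was again open in all groups, with scores of 73 in MEFs, 46 on day 5, 62 on day 10 and 16 in ESCs. It was low in ESCs, where 95.4% of peaks scored as high or higher, and its ESC peak was lost with a score of at least 20. The site at −44.3 kb was not listed in MEFs and was open on day 5 with a score of 47, on day 10 with 43 and in ESCs with 48. A MEF replicate 1 number without a listed interval lay between −79.3 kb and −38.1 kb, a gap that holds this site. In the other lists it stood near the middle, where 49.1%, 51.1% and 39.2% of peaks scored as high or higher. Of all sites, 2.31% were open in every list but MEFs, and the cluster had 2 such sites.

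Downstream of Nanog and before the end of Slc2a3, 2 sites were open in ESCs only. The one at +12.5 kb was 246 bp wide and scored 41, close to the ESC median of 39. The one at +19.6 kb was 828 bp wide and scored 14, with 98.7% of ESC peaks as high or higher. These sites lie in the gap of the missing day 5 number described for the Nanog start.

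Gdf3 (ENSMUSG00000030117.5, chr6:122605403-122610087, − strand) held the other site that was open on both OSKM days and in ESCs but not in MEFs. An ESC peak of 2107 bp, chr6:122607810-122609916, scored 84 and lay over the inner start at 122609824, but not over the outer start at 122610087. Day 5 had a peak of 728 bp with a score of 62, and day 10 one of 886 bp with a score of 49, both inside the ESC peak. These stayed 1.02 kb and 0.962 kb downstream of the inner start, in the gene body. Of the same list, 33.9% of peaks on day 5, 44.5% on day 10 and 15.5% in ESCs scored as high or higher. Listed peaks thus lay in the Gdf3 body on both OSKM days and over a start in ESCs only. Replicate 1 numbers without a listed interval, 2 on day 5 and 1 on day 10, fell in gaps that run from inside Gdf3 across its starts to the site at −44.3 kb, so that a replicate 1 peak at the Gdf3 starts cannot be told apart from none on these days. MEFs had no listed peak within Gdf3.

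Dppa3 (ENSMUSG00000046323.8, chr6:122626410-122630272, + strand) had ESC sites to either side and a MEF site inside. The ESC-only site upstream, at chr6:122624401-122625039, ended 1.37 kb before the start and scored 58, which 29.8% of ESC peaks reached. It held 2 octamers, both written ATTTGCAT in the printed stretch. An octamer was found in 3.18% of all sites and in 4.47% of sites open in ESCs and not in MEFs. Beyond the gene, an ESC-only site of 352 bp scored 72, with 20.8% of ESC peaks as high or higher. It lay in the gap of the missing MEF number described for the −44.3 kb site. The MEF-only peak in the Dppa3 intron was 313 bp wide and scored 15, and 95.7% of MEF peaks scored as high or higher. Another ESC-only site, 7.35 kb upstream of Gdf3 and between the 2 genes, scored 29. Of its bases, 77.5% are marked as repeats. The OSKM days had no listed peak between the Gdf3 body and the −44.3 kb site, where the missing numbers described for Gdf3 lie.

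Slc2a3 (ENSMUSG00000003153.10, chr6:122727809-122801640, − strand) was the only member open at start sites in every group, as were 46.8% of genes. In each list, 5 of its 8 annotated starts had a peak. At the inner group of starts, centred at +34.9 kb, scores were 43 in MEFs, 29 on day 5, 39 on day 10 and 16 in ESCs. The ESC peak was again near the end of its list, with 95.4% of ESC peaks as high or higher, and it was lost with a score of at least 20. At the outermost start, centred at +94.3 kb, scores were 67, 35, 46 and 49, which 35.2%, 66.0%, 47.7% and 38.1% of peaks of the same list reached. A start at +72.5 kb lay under an ESC-only peak with a score of 26. The ESC list thus had the start at +72.5 kb in place of the start at 122742262, which the other lists covered.

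The Slc2a3 gene body held 5 of the 14 ESC-only sites, that at +72.5 kb included. At +63.1 kb a peak of 729 bp scored 77, which 18.4% of ESC peaks reached. The printed stretch held the ESRRB letters TGACCTTGA, found in 1.04% of all sites and in 2.43% of sites open in ESCs and not in MEFs. The ESC-only sites at +55.5 kb, +65.4 kb and +77.9 kb scored 23, 25 and 22. These 3 were weak and were lost, together with the ESC-only start at +72.5 kb, when only the 35226 highest-scoring peaks of each list were kept. A MEF replicate 1 number without a listed interval lay between +57.9 kb and +93.7 kb. That gap holds these ESC-only sites except that at +55.5 kb. The site at +51.7 kb had the opposite pattern, with scores of 68 in MEFs, 39 on day 5 and 36 on day 10 and no ESC peak.

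The intronic site at +58.0 kb was open in all groups, but its listed peaks differed in extent. The MEF peak was 903 bp wide and scored 136, and the peaks on day 5, on day 10 and in ESCs were 1999, 1982 and 1731 bp wide with scores of 52, 62 and 64. Their right ends lay 1.18 kb, 1.20 kb and 1.21 kb beyond the end of the MEF peak. If listed intervals are overlaps of both replicates, these widths and ends also depend on the replicate 2 peaks. At +32.7 kb, 1.79 kb inside the gene from the inner starts, a site was listed on day 10 with a score of 65 and in ESCs with a score of 28. Of the same list, 31.7% and 69.6% of peaks scored as high or higher. The missing day 5 number described for the Nanog start falls in a gap that runs to +34.6 kb and holds this site. The printed stretch of the site held a KLF match and a CTCF match, the latter found in 1.62% of all sites. The only site of the cluster that was open neither in MEFs nor in ESCs was a day 10 peak of 167 bp at +78.8 kb, with a score of 24. Of all sites, 16.1% were of that kind. The gap of the missing MEF number described for the ESC-only sites of Slc2a3 also holds the site at +78.8 kb.

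**Figure D3:**
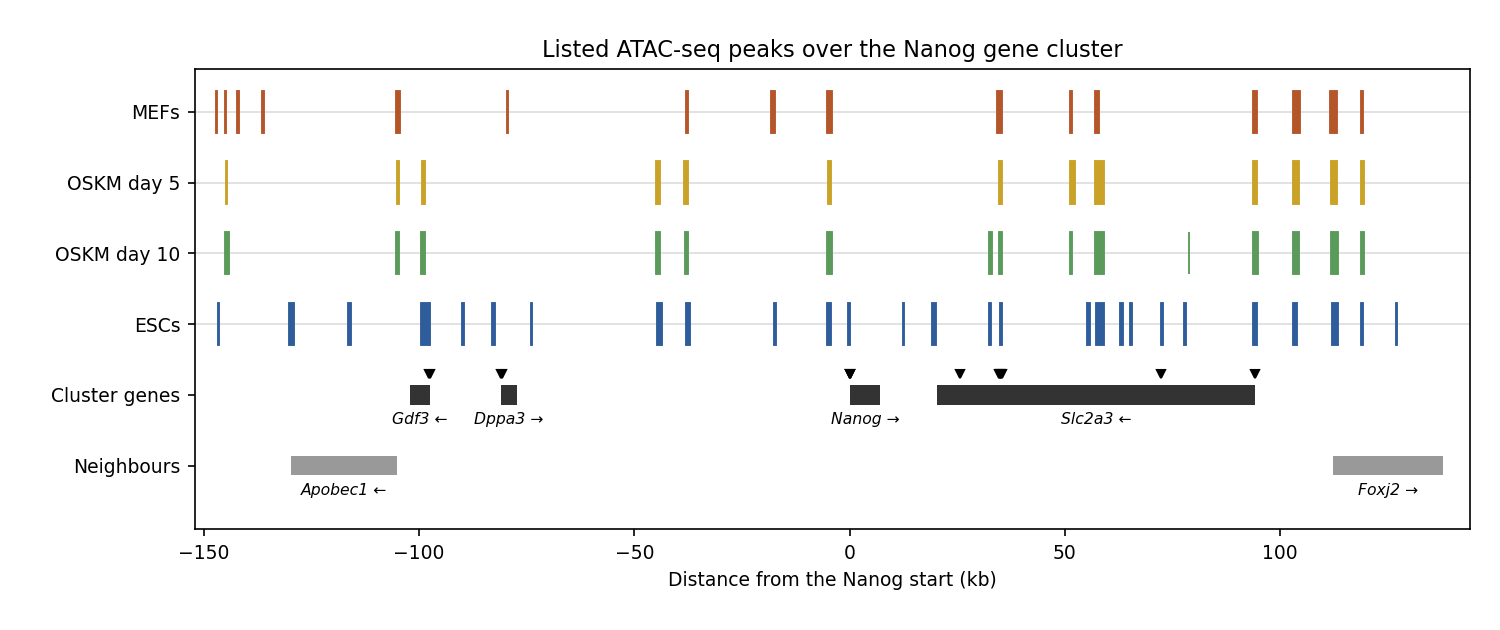
Listed peaks along the whole cluster (x axis, distance from the Nanog start in kb), with 1 row per peak list, the 4 genes in black with annotated starts as triangles, protein-coding neighbours that lie whole within the stretch in grey, arrows for the direction of transcription, and narrow peaks drawn at a minimum line width. The ESC row holds 27 peaks, against 16 in the MEF row, and the sites at +34.9 kb, +94.3 kb and +104 kb are filled in all 4 rows.

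The outer parts of the cluster held sites of the neighbouring genes. To the right, the site at +104 kb had the highest score of the cluster in every list, with 362 in MEFs, 215 on day 5, 257 on day 10 and 251 in ESCs. Between 0.278% and 0.712% of peaks of the same list scored as high or higher. It lay 8.79 kb upstream of the outermost Slc2a3 start and overlapped the unclassified transcript Gm5112. The start of Foxj2, which encodes a forkhead transcription factor, was open in all 4 lists at +113 kb, with scores of 92, 49, 38 and 47. A Foxj2 site at +119 kb was also open in all lists, with scores of 80, 78, 60 and 35. Of the same list, 28.6%, 22.7%, 35.2% and 56.8% of peaks scored as high or higher. An ESC-only site at +127 kb in a Foxj2 intron scored 15. C3ar1, the gene of a complement receptor, reached into the stretch with its end but had no listed peak in it.

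To the left, Apobec1 encodes a cytidine deaminase that edits apolipoprotein B mRNA. Its start was open in MEFs with a score of 89, on day 5 with 85 and on day 10 with 20, and had no listed ESC peak. An ESC replicate 1 number without a listed interval lay between −115.9 kb and −99.7 kb, a gap that holds this start. The Apobec1 start ranked low on day 10, where 88.6% of peaks scored as high or higher, against 25.1% in MEFs and 18.9% on day 5. At −116 kb, in Apobec1, an ESC peak of 551 bp scored 128, the highest score of any ESC-only site of the cluster, reached by 5.42% of ESC peaks. An ESC-only site at −130 kb, at the end of Apobec1, scored 18. MEF-only sites at −142 kb and −136 kb scored 44 and 22.

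**Figure D4:**
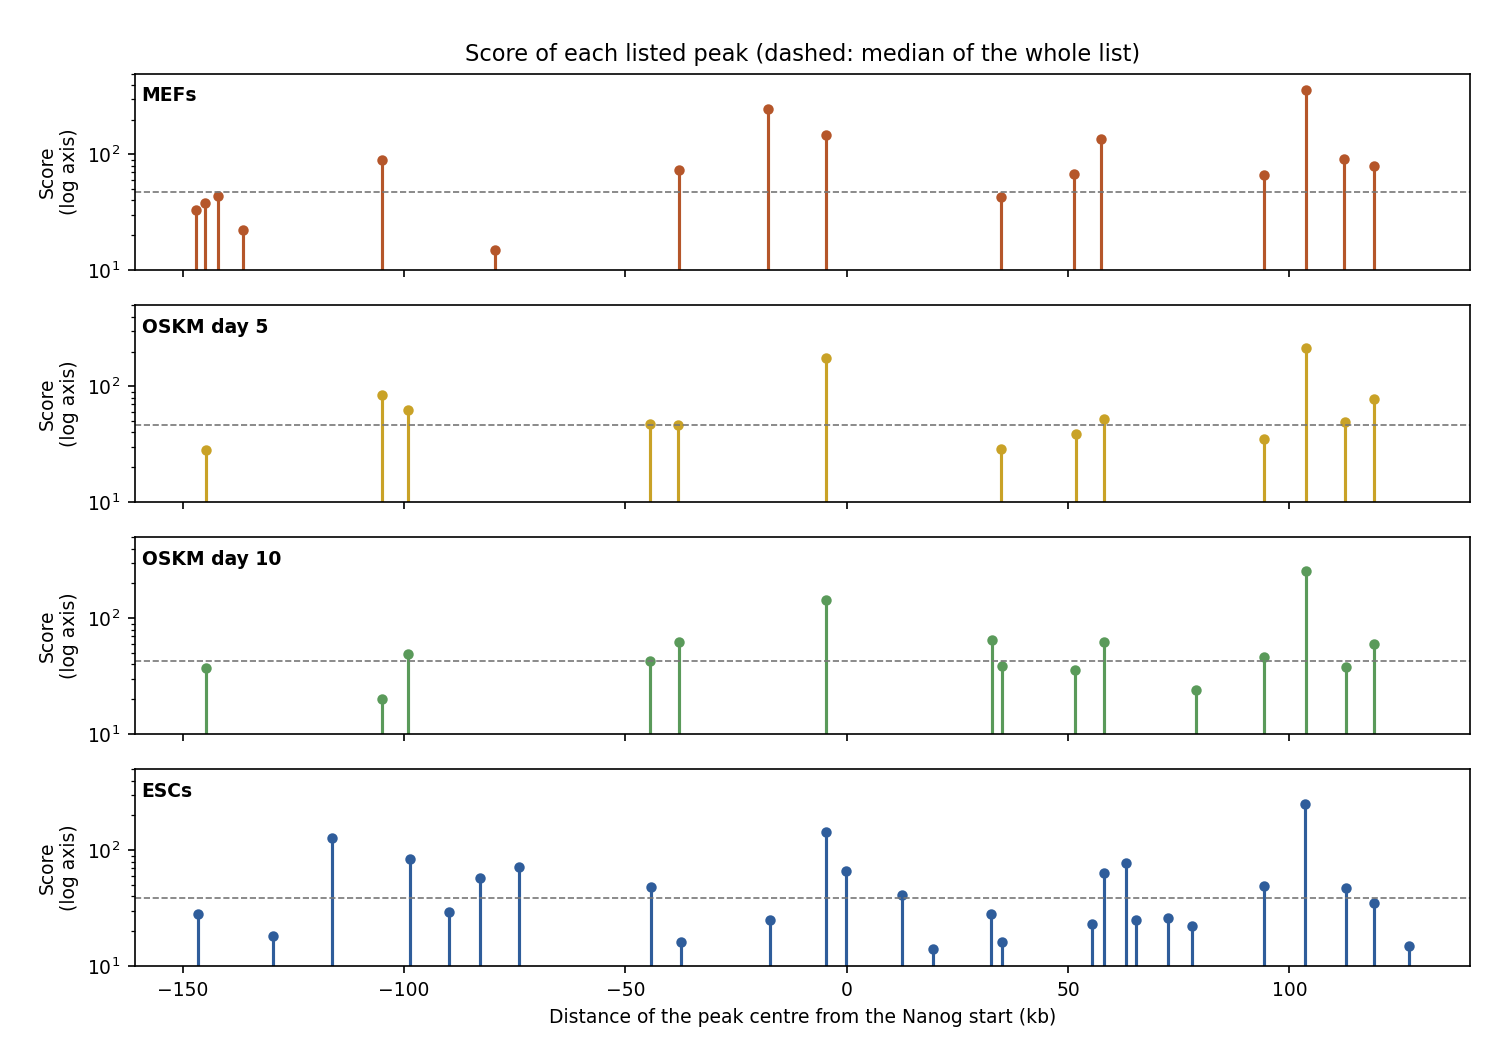
Score of every listed peak of the cluster (y axis, 10 times the −log10 q-value, log axis) against the distance of its centre from the Nanog start (x axis, kb), with 1 panel per peak list and the median of the whole list dashed. The peak near +104 kb is the highest in each panel, and the MEF panel alone has a high peak near −17.6 kb.

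Grouped by list, 17 of the 34 sites (50.0%, 95% Wilson interval 34.1% to 65.9%) were open in ESCs and not in MEFs, compared with 28.4% of all sites. Sites open in both made up 10 of 34 (29.4%, 16.8% to 46.2%), compared with 19.1%. Sites open in MEFs and not in ESCs made up 6 of 34 (17.6%, 8.35% to 33.5%), compared with 36.4%. The intervals cover counting error only and treat neighbouring sites as independent. The counts depend on how the lists and the stretch were taken. With the 35226 peaks of highest score from each list, 11 sites were open in ESCs and not in MEFs and 6 in both, and the sites open in MEFs and not in ESCs numbered 3 with flanks of 25 kb and 12 with flanks of 100 kb. By member window, sites open in ESCs and not in MEFs numbered 6 of 12 at Gdf3, 7 of 10 at Dppa3, 6 of 12 at Nanog and 10 of 20 at Slc2a3. Sites in all 4 lists numbered 8 in the cluster, compared with 13.8% of all sites. By window they numbered 0, 1, 4 and 7 in the same order, so that they lay mainly on the Nanog and Slc2a3 side. Gdf3 had most sites open in MEFs and not in ESCs, 5 of 12.

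The sites were then followed over the OSKM days, where their shares lay near those of the genome for sites open in ESCs. Of the 17 sites open in ESCs and not in MEFs, 2 were listed on day 5 (11.8%), 3 on day 10 (17.6%) and 14 on neither day (82.4%). Across the genome, 10.7% of such sites were listed on day 5, 12.6% on day 10 and 84.9% on neither. Out of all 34 sites, the 14 in the ESC list alone compare with 24.1% of all sites. The 3 sites were those in Gdf3, at −44.3 kb and at +32.7 kb. Of the 10 sites open in MEFs and ESCs, 8 were listed on both days and 2 on neither, that at −17.6 kb among them. Across the genome, 72.3% of such sites were listed on both days and 16.4% on neither. Of the 6 sites open in MEFs and not in ESCs, 3 were listed on both days, those at the Apobec1 start and at +51.7 kb among them, and 3 were in the MEF list alone. Over the genome, 10.2% of sites open in MEFs and not in ESCs were listed on both days and 81.1% on neither. Counted by day, 14.2% were listed on day 5 and 14.8% on day 10. Of all sites, 3.70% were in every list but ESCs and 29.5% in the MEF list alone.

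**Figure D5:**
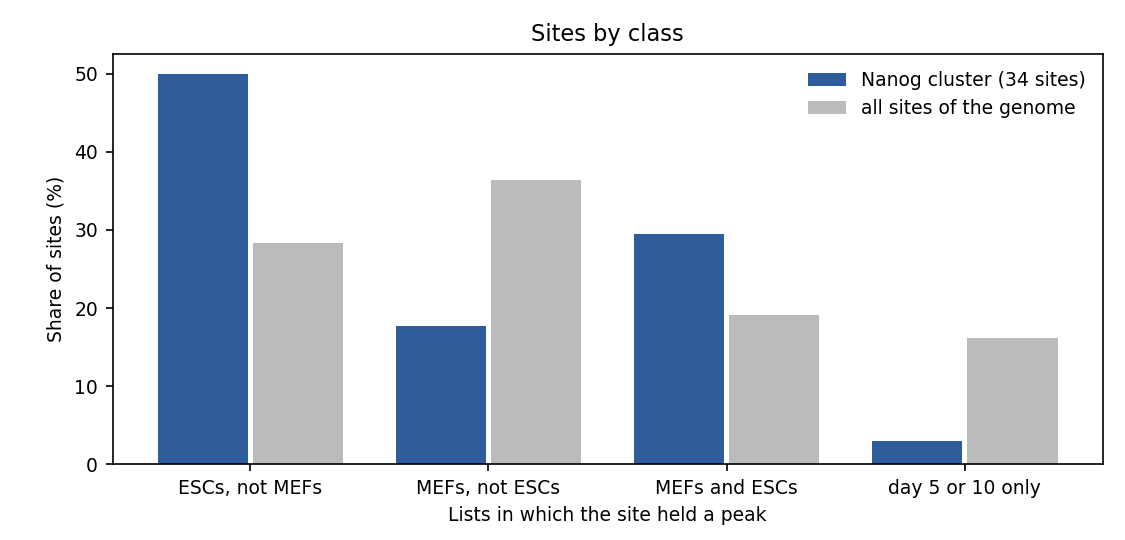
Share of sites (y axis, %) by the lists in which they held a peak (x axis), for the 34 sites of the cluster in blue and all 101701 sites of the genome in grey. Sites open in ESCs and not in MEFs are 50.0% of the cluster and 28.4% of the genome.

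Overlap of single peaks was counted for the lists of both OSKM days. All 13 day 5 peaks of the cluster overlapped a day 10 peak by at least 1 bp, compared with 75.0% over the whole list. Of the 13, 11 shared bases with a MEF peak (84.6%, 57.8% to 95.7%) and 10 with an ESC peak (76.9%, 49.7% to 91.8%). Of the 15 day 10 peaks, 11 shared bases with a MEF peak and 11 with an ESC peak (73.3% for each, 48.05% to 89.1%). The shares for the whole lists were 54.7% of day 5 peaks and 58.9% of day 10 peaks in MEFs, and 48.3% and 53.6% in ESCs. Of the 27 ESC peaks, 9 shared bases with MEF peaks (33.3%, 18.6% to 52.2%), 10 with day 5 peaks (37.0%) and 11 with day 10 peaks (40.7%). These were near the shares of the whole ESC list, 39.1%, 36.2% and 39.1%.

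Other pluripotency genes were counted in the same way. Of 20 such genes, 19 had more peaks in ESCs than in MEFs and Utf1 had fewer, 6 against 8. Among all protein-coding genes, 35.6% had more. Start peaks were found for 10 of the 20 in MEFs, 6 on day 5, 8 on day 10 and 14 in ESCs. The shares of all genes with one were 60.0%, 52.1%, 56.0% and 55.8%. A start peak in ESCs and in no other list, as at Nanog and Gdf3, was present in 2.60% of all genes. It was found for 3 of the 20, namely Zfp42, Dppa2 and Dppa4. These 3 are, respectively, a zinc finger gene used as a marker of naive pluripotency and a pair of developmental pluripotency genes that lie next to each other and share peaks. Like Dppa3, 5 of the 20 had no start peak in any list, namely Pou5f1, Prdm14, Dppa5a, Utf1 and Lin28a, compared with 35.4% of all genes. In ESCs the windows of Pou5f1 and Prdm14 nevertheless held 9 peaks each. Nanog had 6 peaks in its window in MEFs, where the median was 2 for the 20 genes and 5 for all protein-coding genes. Among the 20 in MEFs, Utf1 had 8 and Klf2 had 6, whereas Zfp42, Dppa2 and Dppa4 had 0.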

How the data were processed

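Per the labels and the methods, the authors mapped reads to mm10 with bowtie2 (the labels' notes give version 2.2.0), filtered them on mapping quality with samtools, and kept uniquely mapped, non-mitochondrial reads. Labels and methods name different quality thresholds. The peak caller and any shift of read ends are not given in the sources used here. The authors deposited 1 list per group, without a header, with a score, a fold enrichment (a ratio) and −log10 p-values and q-values per peak. The score equals the −log10 q-value times 10 with the decimals dropped, and the lowest −log10 q-value was just above 1. Peaks carry replicate 1 names in lists called intersections. Intervals therefore appear to be overlaps of replicate 1 with replicate 2 peaks, scored as the whole replicate 1 peak, which no source states. Replicate 1 numbers ran in order of position, so that a missing number marks a peak without a listed interval.

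Peaks of the 4 lists within 400 bp were merged into sites. Starts and exons came from GENCODE mouse release 21, and sequences from GRCm38, the same build as mm10, with 0 peaks past a chromosome end. RefSeq promoter windows were matched by symbol. Nanog matched, and Gdf3, Dppa3 and Slc2a3 were not in the table used. Motif shares refer to the middle 300 bp of the widest peak of each site. Python 3.11.15, numpy 2.4.6, scipy 1.17.1 and pysam 0.24.0 were used. The interval code was tested on simulated data. With 1 list per group no test was made. The depth per library is unknown, which limits comparisons of list lengths. Alternatives were other flanks, merging distances, score minimums, start definitions and overlaps. Named were the 4 members, other protein-coding genes in the stretch (a neighbouring gene with its sites and a sequence are not reported here), a list of 20 pluripotency genes and cell type markers. The members and lists were chosen with earlier results of these data known.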

Additional observations from a re-analysis of the deposited data

How the results depend on the processing

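Of 70 values recomputed under 10 alternatives, 57 stayed within 1.5 times the reported count or within the interval of the reported share, and 13 moved further. Sites open in MEFs and not in ESCs numbered 3 with flanks of 25 kb and 12 with flanks of 100 kb, in place of 6. With the higher-scoring 50% of each list, which removes peaks by construction, the cluster held 10 peaks in MEFs, 8 on day 5, 8 on day 10 and 13 in ESCs, with 8 sites open in ESCs and not in MEFs and 5 open in both. Cut to the 35226 peaks of highest score, the lists gave 17 ESC peaks, with 11 sites open in ESCs and not in MEFs and 6 open in both. The site open on day 10 only was joined to its neighbour when peaks within 1000 bp were merged, which left 0 such sites. With a peak allowed within 1 kb of a start, 2 members had a start peak on day 10, Gdf3 and Slc2a3. ESC peaks outnumbered MEF peaks in the cluster under each of the 5 alternatives run for that count. No paired analysis was possible because each group had 1 list made from both replicates, and for the same reason no replicate could be left out. Unknown depth limits what the absence of a peak says.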

Other observations

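Counted along the replicate 1 peak numbers, the cluster spanned 18 numbers in MEFs, 16 on day 5, 16 on day 10 and 34 in ESCs, of which 2, 3, 1 and 7 had no listed interval. The listed shares were 88.9%, 81.2%, 93.8% and 79.4%, beside 83.0%, 76.3%, 84.1% and 75.5% over the genome. In ESCs, 1 missing number lay between +0.041 kb and +12.4 kb of the Nanog start, a stretch that holds the Nanog gene body. Bases marked as repeats made up a median of 21.3% of the middle 300 bp of the 34 sites and 9% of those of all sites, and the median share of G and C was 48.7% and 46.3%.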
